A study of Mus musculus with 24 samples.

Results

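Cholesterol is built in the liver from acetyl-CoA, and the genes of that route were followed here in the livers of diabetic mice fed quercetin. The set holds 28 genes listed for cholesterol synthesis and the response to sterols: enzymes of the route, the proteins that control the transcription factor SREBP2, and proteins that transfer or export sterols. A gene was included where a probe set of the array named it as its only gene, and its brightest probe set over all arrays stood for it. Of the 28 genes, 27 were measured this way and all 27 lay above the filter on low signals, among 13114 genes tested of 18194 with a probe set of their own. Acat2 was not analysed here, and 19 of the 27 genes encode enzymes of the route. Other enzymes of the pathway are not analysed here.

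RNA from the livers of 24 male mice of the strain BALB/c was hybridised to Affymetrix arrays, with 1 array for each animal. The 4 groups held 6 mice each, which were 6 weeks old when obtained. Control mice received no injection and ate the purified diet AIN93G. The other 18 had 1 intraperitoneal injection of streptozotocin (STZ, 185 mg/kg), a compound that destroys the insulin-producing beta cells, and were kept only if non-fasting blood glucose reached 230 to 400 mg/dL a week later; these ate AIN93G alone (STZ), or AIN93G with 0.1% or 0.5% quercetin, a plant flavonol, for 14 days. Only mice of that glucose range stand for diabetes, the control mice had no vehicle injection, and no group received quercetin without STZ. Mice were housed 3 per cage and are not tied to cages in the labels, so a cage effect and a group effect cannot be told apart.

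Cells make cholesterol through mevalonate, farnesyl diphosphate, squalene and lanosterol. When sterols in the endoplasmic reticulum run low, SCAP escorts SREBP2 to the Golgi, where it is cut to an active transcription factor that raises most genes of the route, and when sterols are plentiful INSIG proteins hold SCAP back. In liver the route also follows feeding, insulin and the time of day, and excess sterol leaves through the exporters ABCG5 and ABCG8 into bile and through ABCA1 into HDL.

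The stretches upstream of the starts are shown because SREBP2 is known to act there together with NF-Y, which binds the CCAAT box. RefSeq promoters (GRCm38.p6) were matched to 24 of the 28 genes, with 250 bases before each start searched on both strands; Fdft1, Fdps, Sqle and Stard4 had no match. The first line gives the only match among the 24 genes to TCACNCCAC, a form of the sterol regulatory element. Each other line gives the CCAAT box nearest to the most upstream start (ATTGG where it lies on the opposite strand). These lines cover the genes called lower at 0.1% quercetin that held a box, and Nsdhl, which tracked Hmgcs1 most closely. The searched window held 3 such boxes in Hmgcs1 and 2 in Nsdhl. Capitals mark the match.
Hmgcs1, sterol element: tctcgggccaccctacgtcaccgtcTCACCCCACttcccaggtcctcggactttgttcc
Hmgcs1, CCAAT box: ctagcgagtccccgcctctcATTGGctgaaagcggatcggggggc
Sc5d, CCAAT box: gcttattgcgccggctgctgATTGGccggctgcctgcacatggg
Pmvk, CCAAT box: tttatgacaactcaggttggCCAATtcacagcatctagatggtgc
Insig1, CCAAT box: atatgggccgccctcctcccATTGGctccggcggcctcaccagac
Nsdhl, CCAAT box: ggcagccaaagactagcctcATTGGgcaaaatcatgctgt

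The sterol element of Hmgcs1 lies 137 to 129 bases before the start, in chr13:119690189-119690247 on the plus strand. TCACNCCAC stood in the window of 1 of 24 genes (4.17%), against 1.31% of the 10580 tested genes with a promoter. Counted by promoter, it stood in 1 of the 31 promoters of these genes and in 1.05% of all 32851 promoters. A second form of the element that was searched stood in 0 of 24 genes and in 0.558% of the tested genes. CCAAT stood in 20 of 24 genes (83.3%), against 39.9% of the tested genes. Counted by promoter, it stood in 20 of 31, against 33.9% of all promoters. The genes without it were Abca1, Abcg5, Acat2 and Scap. GGGCGG, the Sp1 box, was also in 20 of 24 genes (83.3%; 59.9% of the tested genes), and CANNTG, the E-box, in 16 of 24 (66.7%; 63.2%). These counts describe letters in a window, not bound sites. The printed CCAAT stretches lie at chr13:119690286-119690330 (plus strand) for Hmgcs1, chr9:42264301-42264344 (minus) for Sc5d, chr3:89454385-89454429 (plus) for Pmvk, chr5:28071176-28071220 (plus) for Insig1 and chrX:72918481-72918520 (plus) for Nsdhl.

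Levels below are log2(intensity + 16) after quantile normalization, and a difference is a difference of group means on that scale, which understates the change of dim genes. Differences were tested with limma over all 13114 genes, two-sided, with Benjamini-Hochberg adjustment and a threshold of 0.05. Levels of different genes are not set against each other, since probe sets differ in brightness. Where mice of a group are said to lie beyond every mouse of another, the share of all genes for which this holds was not counted. Each whole liver sample mixes cell types, so fewer cells of a type and less RNA per cell cannot be told apart. Over all genes tested, 0.5% quercetin replicates 5 and 6 stood apart from their group: on the first principal component, which held 22.4% of the variance, they lay at -17.2 and -19.2, beside control mice at -18.3 to -13.5, with the other 4 mice at 3.17 to 9.50. Hepatocyte markers were present throughout: all 9 of the 9 measured lay above the filter, with summed intensities of 39234 to 43238 over the 24 mice.

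In the livers of STZ mice, 1 of the 27 sterol genes passed the test against control: Scap fell. Over all genes tested, 3.72% passed in this comparison, 1.69% as lower and 2.03% as higher. The median difference of the 27 genes was -0.06 against -0.02 over all genes, and 15 of 27 (55.6%) were below 0, beside 55.3% of all genes. At an unadjusted p under 0.05 stood 3 of the 27 (11.1%), Scap, Stard4 and Abca1, beside 2194 of all genes (16.7%).

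With 0.1% quercetin added to the diet of STZ mice, 5 sterol genes were lower than in control mice and 0 were higher: Hmgcs1, Pmvk, Sc5d, Insig1 and Scap. This is 5 of 27 beside 2.64% of all genes called lower in that comparison, 2.94% called higher and 5.57% called in either direction. The median of the 27 genes was -0.21 against -0.01 over all genes, and 23 of the 27, including 17 of the 19 enzymes, were below 0, beside 53.8% of all genes. These calls were lost without 2 mice, 0.1% quercetin replicates 5 and 6: without both, 0 of the 27 genes passed, 19 were below 0 and the median was -0.09. In that fit the calls over all genes also went down, from 731 to 252 (1.92%). The 2 mice were left out after their low levels had been seen, so it is no independent comparison.

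Against STZ mice, 0 of the 27 genes passed at either dose of quercetin, as did 0 of the 13114 genes tested, and 0 of both passed between the doses (0% called in each; limma adjusted p under 0.05). Unadjusted limma p-values under 0.05 were found for 4 of 27 genes (14.8%) at 0.1% against STZ, beside 687 of all genes (5.24%). At 0.5% against STZ they were found for 1 (3.70%), beside 985 of all genes (7.51%). Between the doses it was 4 (14.8%), beside 1094 (8.34%). The smallest p-values at 0.1% against STZ were those of Sc5d (-0.65), Pmvk (-0.54) and Fdps (-0.82), with limma adjusted p-values of 0.870, 0.870 and 0.885. At 0.5% against STZ, Ggps1 (-0.22) was followed by Scap at 0.15 and Insig1 at -0.19 (adjusted p = 0.730 and 0.804). Between the doses, Sc5d was 0.61 and Fdps 0.75 higher at 0.5% than at 0.1%, which did not pass (limma adjusted p = 0.523 and 0.546). All 19 enzymes were below 0 at 0.1% against STZ, with a median over the 27 genes of -0.15, and the share of all genes below 0 was 47.9%. Without 0.1% replicates 5 and 6, the number of the 27 genes below 0 in that comparison went from 23 to 14. At 0.5% against control 0 of 27 genes passed, where 0.13% of all genes did (0.0534% higher and 0.0763% lower), 17 (63.0%) were below 0 beside 54.1% of all genes, and 4 (14.8%) had an unadjusted p under 0.05 beside 1613 of all genes (12.3%). Without 0.5% replicates 5 and 6, 1 of 27 passed there (Stard4, lower) and 22 were below 0, while 433 of all genes passed (3.30%; 234 higher and 199 lower). With median scaling in place of quantile normalization, 4 of 27 passed as lower, where 36 of all genes passed as higher and 652 as lower, against 7 and 10. Comparisons that share the control or the STZ mice are not independent of each other.

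**Figure D1:**
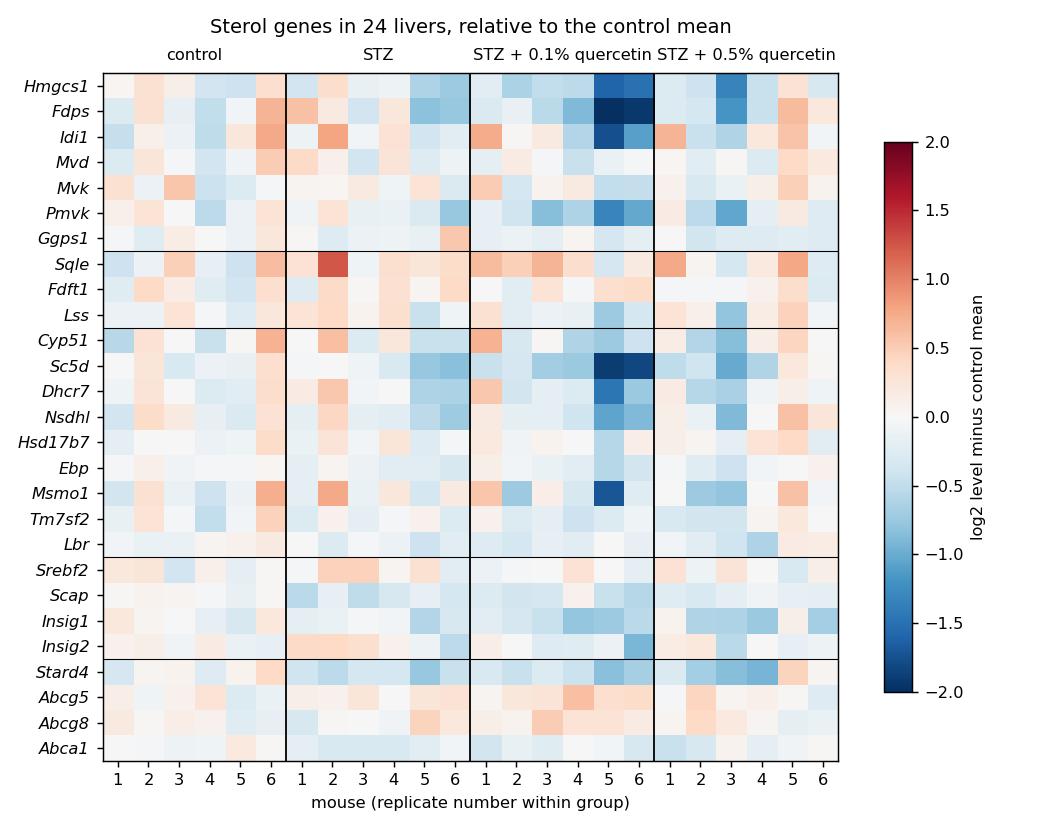
Level of each of the 27 genes in each of the 24 mice as log2(intensity + 16) minus the mean of the 6 control mice (colour scale, -2 to 2), with columns for mice by group and replicate and lines between roles from the mevalonate pathway at the top to transfer and export at the bottom. The darkest blue columns are 0.1% quercetin replicates 5 and 6, followed by 0.5% quercetin replicate 3, and the blue covers many enzymes at once.

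Hmgcs1 makes HMG-CoA, the direct precursor of mevalonate. Its lowest, median and highest levels were 9.50, 10.00 and 10.26 in control mice, 9.20, 9.66 and 10.27 in STZ mice, 8.33, 9.35 and 9.71 at 0.1% quercetin, and 8.59, 9.56 and 10.20 at 0.5%. At 0.1% the 2 lowest mice, replicates 5 and 6 (8.33 and 8.43), lay apart from the other 4 (9.29 to 9.71), and 5 of the 6 were below every control mouse. Hmgcs1 fell by 0.82 at 0.1% against control (SE 0.24, n = 6 and 6; limma adjusted p = 0.0391), 1.77-fold on the scale of intensity plus 16. The difference was -0.46 (adjusted p = 0.343) without replicates 5 and 6. Leaving out 1 mouse at a time, the call was lost without control replicates 1, 2, 3 or 6 or 0.1% replicates 5 or 6, with adjusted p-values up to 0.121. The differences of Hmgcs1 from control were -0.27 in STZ mice (adjusted p = 0.630) and -0.42 at 0.5% quercetin (adjusted p = 0.496), and neither passed. Of its 4 other probe sets, 3 over the filter gave -0.65, -0.68 and -0.77 at 0.1% against control, and the fourth lay under the filter.

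Pmvk phosphorylates phosphomevalonate. Its levels (lowest, median, highest) were 6.32, 6.89 and 7.12 in control mice, 6.08, 6.70 and 7.12 in STZ mice, 5.52, 6.10 and 6.67 at 0.1%, and 5.81, 6.62 and 7.02 at 0.5% quercetin. The 0.1% mice overlapped the control range with 2 of 6 mice. Pmvk fell by 0.73 at 0.1% against control (SE 0.20; limma adjusted p = 0.0281), and by the same fit the difference was -0.19 in STZ mice and -0.28 at 0.5%, without passing. It was -0.51 (adjusted p = 0.240) without 0.1% replicates 5 and 6, and the call was also lost when control replicates 1, 2 or 6 or 0.1% replicates 3, 5 or 6 were left out singly, with adjusted p-values up to 0.0902.

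Fdps makes farnesyl diphosphate, the last intermediate shared by sterols and other isoprenoids. It spanned 8.47, 8.85 and 9.64 in control mice, 8.15, 8.86 and 9.55 in STZ mice, 6.82, 8.26 and 8.81 at 0.1%, and 7.78, 8.65 and 9.59 at 0.5% quercetin. Its spread at 0.1% (SD 0.85) was the widest of the 4 groups. The difference at 0.1% against control was -0.99 (SE 0.32) with an adjusted p of 0.0714 in limma and did not pass. It did pass with median scaling (-1.05, adjusted p = 0.0337) and when 0.1% replicate 1 or 2 was left out. Without 0.1% replicates 5 and 6 it was -0.46.

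Idi1 isomerises isopentenyl diphosphate, and its levels ran from 7.00 to 8.27 in control mice, 7.12 to 8.29 in STZ mice, 5.76 to 8.25 at 0.1% and 6.90 to 8.19 at 0.5% quercetin, with medians of 7.50, 7.44, 7.23 and 7.58. All 4 groups overlapped, and its difference at 0.1% against control was -0.41 (SE 0.31; limma adjusted p = 0.511). Mvd, Mvk and Ggps1, which decarboxylate, phosphorylate and elongate intermediates of this stretch, passed in 0 of the 6 comparisons. For Mvd the difference at 0.1% against control was -0.11, and a dimmer probe set of it over the filter gave -0.61. Ggps1, the branch to geranylgeranyl groups, had the smallest p of the 27 genes at 0.5% quercetin against STZ, with a difference of -0.22 (SE 0.11; limma adjusted p = 0.651), and its other probe sets gave differences of -0.10, -0.03 and -0.01 there. Against control it differed by -0.23 at 0.5% (adjusted p = 0.378).

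The 3 enzymes that lead from farnesyl diphosphate to lanosterol were all above 0 in STZ mice against control, though 0 of 3 passed. Sqle, squalene epoxidase, which adds the oxygen needed for ring closure, had levels (lowest, median, highest) of 4.94, 5.21 and 5.98 in control mice, 5.27, 5.66 and 6.60 in STZ mice, 5.02, 5.77 and 6.03 at 0.1%, and 5.00, 5.47 and 6.13 at 0.5% quercetin. The groups overlapped, and the highest value was that of STZ replicate 2. The difference of Sqle from control was 0.40 in STZ mice (SE 0.23; limma adjusted p = 0.393) and 0.33 at 0.1% quercetin (adjusted p = 0.458). Lss, which closes the rings of oxidosqualene, had medians of 6.30, 6.53, 6.17 and 6.48 in control, STZ, 0.1% and 0.5% mice and a range over all mice of 5.58 to 6.83, with differences from control of 0.09, -0.21 and 0.02 that did not pass. Fdft1, squalene synthase, differed by 0.15, 0.13 and 0.01 from control in the same order, again without passing. A dimmer probe set of it over the filter gave 0.26, 0.29 and 0.16.

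Of the 9 enzymes that turn lanosterol into cholesterol, 1 passed, at 0.1% quercetin against control. Sc5d, which introduces the double bond at the fifth carbon of the sterol, had levels (lowest, median, highest) of 9.65, 9.88 and 10.28 in control mice, 9.11, 9.75 and 9.94 in STZ mice, 8.04, 9.23 and 9.61 at 0.1%, and 8.93, 9.50 and 10.16 at 0.5% quercetin. All 6 mice at 0.1% lay below all 6 control mice, and replicates 5 and 6 (8.04 and 8.13) lay more than 1 log2 unit below the next. Sc5d fell by 0.99 (SE 0.24; limma adjusted p = 0.0123), 1.99-fold on the scale of intensity plus 16. It was the only one of the 5 lower genes that passed whichever single mouse was left out (adjusted p 0.00484 to 0.0436 over 24 fits). Without both replicates 5 and 6 the difference was -0.56 (adjusted p = 0.163). Its 2 other probe sets gave -0.45 and -1.08.

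The same comparison gave all 9 enzymes of this stretch below 0, with a median of -0.22. Cyp51, the lanosterol demethylase, spanned 6.06 to 7.31 in control, 6.17 to 7.22 in STZ, 5.89 to 7.31 in 0.1% and 5.77 to 7.05 in 0.5% mice, with medians of 6.63, 6.47, 6.25 and 6.68, and these ranges overlapped almost wholly. Its difference at 0.1% against control was -0.22 (SE 0.24; limma adjusted p = 0.673). Nsdhl, Dhcr7 and Msmo1, which remove methyl groups or reduce the last double bond, differed by -0.42, -0.41 and -0.39 without passing. Ebp, a sterol isomerase, differed by -0.20, the sterol reductases Lbr and Tm7sf2 by -0.20 and -0.19, and Hsd17b7, which reduces the keto group left by demethylation, by -0.04.

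**Figure D2:**
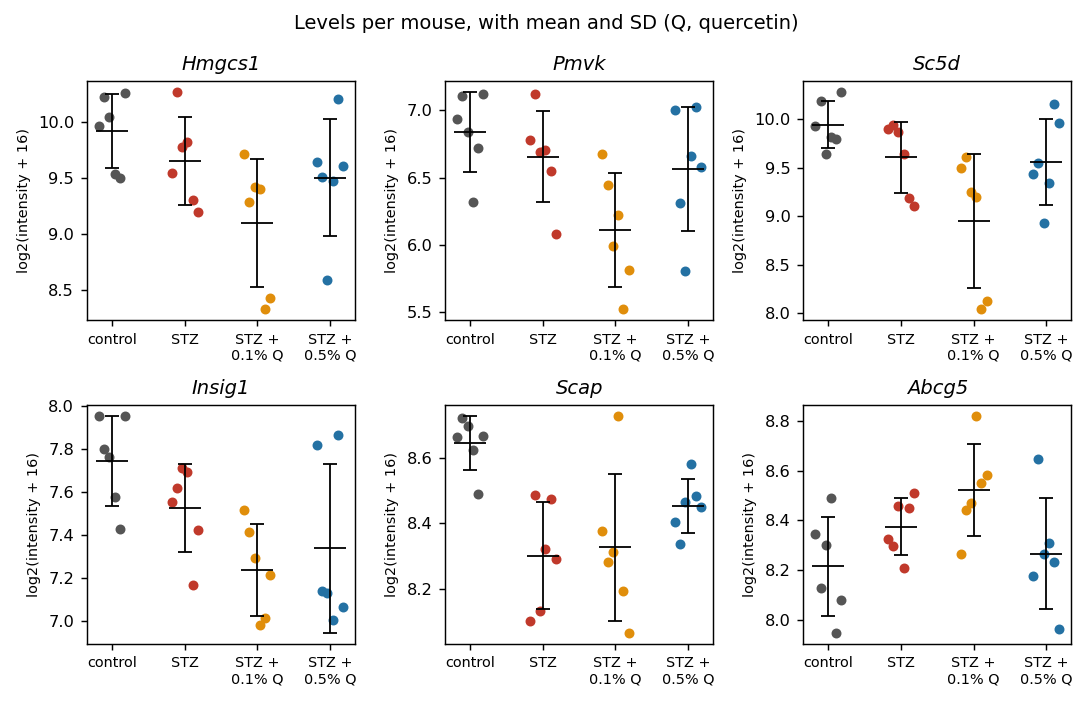
Levels per mouse of Hmgcs1, Pmvk, Sc5d, Insig1, Scap and Abcg5 as log2(intensity + 16) in the 4 groups, with each dot a mouse and bars for mean and SD of 6 mice. For Sc5d the 0.1% mice lie at 8.04 to 9.61, all below the control mice at 9.65 to 10.28. For Scap the STZ mice lie at 8.10 to 8.486, just below the lowest control mouse at 8.491.

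Srebf2 encodes SREBP2 itself, and its groups overlapped. Its levels ran from 4.93 to 5.56 in control, 5.09 to 5.78 in STZ, 5.13 to 5.60 in 0.1% and 5.02 to 5.60 in 0.5% mice, with medians of 5.39, 5.50, 5.30 and 5.38. The differences of Srebf2 from control were 0.17, -0.01 and 0.04 (SE 0.13), and its smallest adjusted p in limma over these 3 was 0.543. Transcript levels do not show how much SREBP2 protein is cut.

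Scap is the escort and sterol sensor of SREBP2. Its lowest, median and highest levels were 8.49, 8.67 and 8.72 in control mice, 8.10, 8.31 and 8.49 in STZ mice, 8.07, 8.30 and 8.73 at 0.1%, and 8.34, 8.46 and 8.58 at 0.5% quercetin. All 6 STZ mice lay below all 6 control mice, but barely, with the highest STZ mouse at 8.486 and the lowest control mouse at 8.491. At 0.1%, 5 of 6 lay below and 1 lay above the control range. Scap fell by 0.34 in STZ mice (SE 0.09; limma adjusted p = 0.0323) and by 0.32 at 0.1% (adjusted p = 0.0382), or 1.27-fold and 1.25-fold on the scale of intensity plus 16, and differed by -0.19 at 0.5% (adjusted p = 0.398). The call in STZ mice was lost without control replicates 1, 2, 3, 4 or 6 or STZ replicates 1, 3 or 6 (adjusted p up to 0.0837), and that at 0.1% without control replicates 1, 2, 3, 4 or 6 or 0.1% replicates 1, 2, 3, 5 or 6 (up to 0.114). A second Scap probe set lay under the filter and gave 0.07 in STZ mice.

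Insig1, an anchor of SCAP that is itself raised by SREBP2, had levels (lowest, median, highest) of 7.43, 7.78 and 7.96 in control mice, 7.17, 7.59 and 7.71 in STZ mice, 6.98, 7.25 and 7.52 at 0.1%, and 7.01, 7.14 and 7.87 at 0.5% quercetin. At 0.5% the mice split, with replicates 1 and 5 (7.82 and 7.87) among the controls and the other 4 between 7.01 and 7.14. Insig1 fell by 0.51 at 0.1% against control (SE 0.14; limma adjusted p = 0.0339), with 5 of 6 mice below every control mouse. It differed by -0.41 at 0.5% (adjusted p = 0.230) and by -0.22 in STZ mice (adjusted p = 0.474). The call at 0.1% was lost without control replicates 1, 2, 3 or 6 or 0.1% replicates 3, 4, 5 or 6 (adjusted p up to 0.0906), and the difference was -0.45 (adjusted p = 0.182) without both 5 and 6. Insig2, the other anchor of SCAP, which unlike Insig1 is not a target of SREBP2, ran from 10.68 to 11.00 in control, 10.31 to 11.23 in STZ, 9.93 to 10.97 in 0.1% and 10.30 to 11.05 in 0.5% mice (medians 10.84, 11.04, 10.66 and 10.79). Its differences from control of 0.09, -0.23 and -0.07 did not pass. Its other probe sets, also over the filter, gave 0.32 and 0.20 in STZ mice, -0.15 and -0.21 at 0.1%, and -0.05 and -0.08 at 0.5%.

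Stard4 carries cholesterol between membranes. Its lowest, median and highest levels were 7.11, 7.51 and 7.84 in control mice, 6.69, 7.02 and 7.10 in STZ mice, 6.60, 7.01 and 7.17 at 0.1%, and 6.52, 6.96 and 7.89 at 0.5% quercetin. The highest STZ mouse (7.096) lay just below the lowest control mouse (7.107). The difference of -0.47 (SE 0.17) had an adjusted p of 0.142 in limma and did not pass. In a fit on the STZ and control mice alone it did pass (adjusted p = 0.0231), as it did when 0.5% replicates 5 and 6 were left out of the shared fit (adjusted p = 0.0257). At 0.1% the difference was -0.49 (adjusted p = 0.0998), which passed with median scaling (adjusted p = 0.0352), with only the groups compared and without 0.5% replicates 5 and 6 (adjusted p = 0.0156). With the Gapdh 3' minus 5' difference described further on as a covariate, Stard4 was -0.23 in STZ mice (adjusted p = 0.839) and -0.27 at 0.1% (adjusted p = 0.660). At 0.5% it was -0.37 (adjusted p = 0.380) over 6 mice and -0.68 (adjusted p = 0.00461) without replicates 5 and 6. The 2 other probe sets of Stard4 gave -0.34 and -0.44 in STZ mice.

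The exporters Abcg5, Abcg8 and Abca1 passed in 0 of the 6 comparisons. Abcg5 and Abcg8 encode the paired subunits of 1 transporter and start head to head 109 bases apart, at chr17:84683012-84683120 (RefSeq, GRCm38.p6, plus strand), a stretch in which none of the 5 searched motifs was found.
Abcg5 to Abcg8: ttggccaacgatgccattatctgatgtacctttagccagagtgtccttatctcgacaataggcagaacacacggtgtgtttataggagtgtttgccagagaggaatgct
Abcg5 spanned 7.95 to 8.49 in control, 8.21 to 8.51 in STZ, 8.26 to 8.82 in 0.1% and 7.96 to 8.65 in 0.5% mice, with medians of 8.21, 8.39, 8.51 and 8.25. Abcg8 spanned 7.34 to 7.75, 7.26 to 8.03, 7.65 to 8.09 and 7.40 to 7.98, with medians of 7.63, 7.60, 7.80 and 7.63. At 0.1% against control the difference was 0.31 for Abcg5 (SE 0.11; limma adjusted p = 0.0909) and 0.24 for Abcg8 (SE 0.11; adjusted p = 0.260), opposite in sign to 17 of the 19 enzymes, with 3 of 6 mice above every control mouse for each. Between the doses Abcg5 differed by -0.26 (adjusted p = 0.530). Abca1 spanned 9.12 to 9.41 in control, 8.91 to 9.16 in STZ, 8.85 to 9.22 in 0.1% and 8.77 to 9.28 in 0.5% mice, with medians of 9.20, 8.95, 9.02 and 9.09. Its differences from control were -0.23 (adjusted p = 0.166), -0.19 and -0.16, and 5 of 6 STZ mice were below every control mouse. Its other probe sets, also over the filter, gave -0.01 and 0.03 in STZ mice, 0.09 and -0.06 at 0.1%, and 0.24 and 0.15 at 0.5%. With the mean of all probe sets the difference in STZ mice was -0.07 (limma adjusted p = 0.699).

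**Figure D3:**
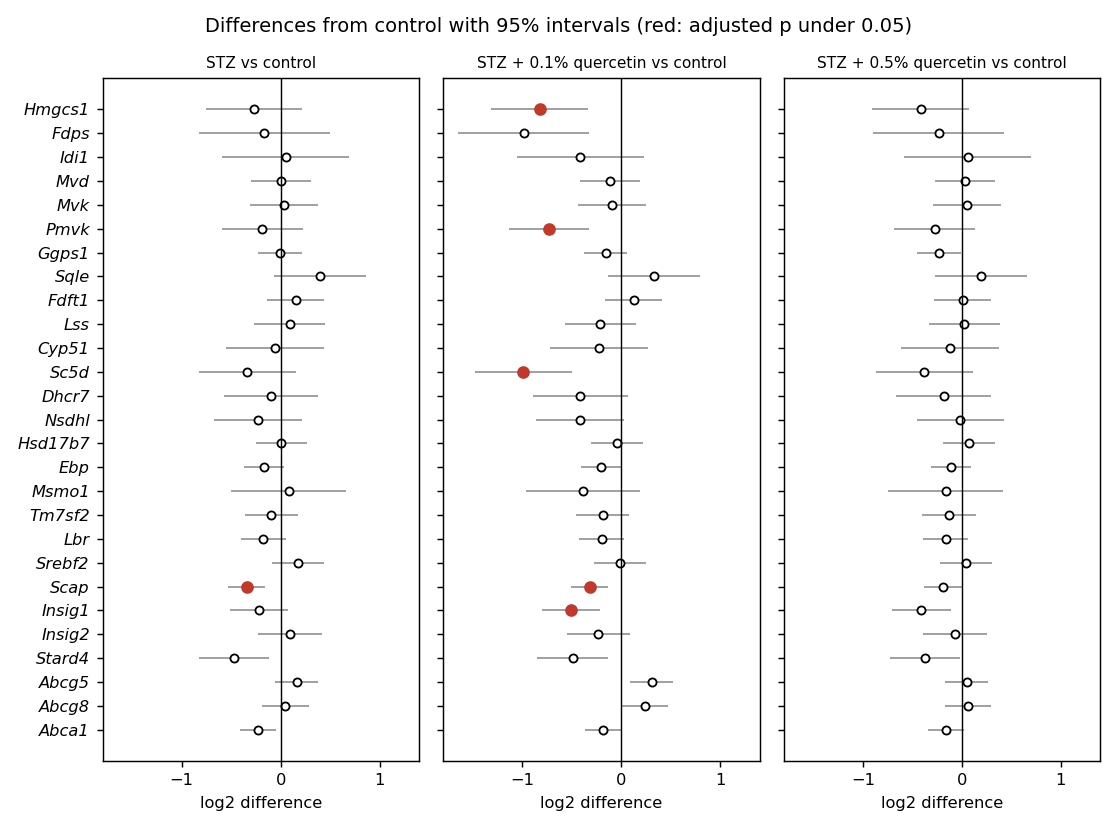
Differences of the 27 genes from control in the 3 STZ groups, on the log2(intensity + 16) scale, as points with 95% intervals from limma; red points have an adjusted p under 0.05. Red marks Scap in STZ mice, Hmgcs1, Pmvk, Sc5d, Scap and Insig1 at 0.1% quercetin and no gene at 0.5%.

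Within a group, most enzymes were high or low in the same mice. For each gene the deviations of the 24 mice from their group means were correlated with those of Hmgcs1, which removes the differences between groups. Nsdhl followed Hmgcs1 most closely (Pearson r = 0.94, Spearman rho = 0.90; permutation within groups, 100000 draws, p = 1e-05, the smallest these draws can give; 0.93 without the 2 mice farthest in Hmgcs1). Next came Pmvk (r = 0.88, rho = 0.83), Sc5d (0.87, 0.82), Dhcr7 (0.86, 0.84), Fdps (0.84, 0.78), Ebp (0.84, 0.79), Lss (0.83, 0.75) and Idi1 (0.80, 0.81). Of 26 such relations, 16 had an adjusted p under 0.05 by both measures. An r of at least 0.7 was reached by 11 of the 18 other enzymes (61.1%), and by 29 of the 13095 tested genes that are no enzymes of the list (0.221%). The points share the arrays, and anything that differs between liver samples enters every pair, so these values are descriptions of these mice.

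The enzymes did not all move together. By the probe sets that stood for them, Mvd (r = 0.30), Fdft1 (0.17), Lbr (0.15) and Ggps1 (-0.03) did not track Hmgcs1, with adjusted permutation p-values of 0.200, 0.483, 0.606 and 0.890. The dimmer probe set of Mvd was not set against Hmgcs1. The other probe sets of Ggps1 had an r of 0.21, -0.17 and -0.41 with the one used, so its value rests on 1 dim probe set. Over the 171 pairs of enzymes the median r was 0.54 and the range -0.21 to 0.94, with 91 pairs at 0.5 or more and 16 below 0. Srebf2 had an r of 0.08 with Hmgcs1 (rho = 0.22; adjusted permutation p = 0.742 and 0.338). Insig1 had an r of 0.61 (rho = 0.65; adjusted permutation p = 0.00505 and 0.00240). For Insig2 the r was 0.55 and passed (adjusted permutation p = 0.0210), whereas the rho of 0.37 did not (0.140), and in a second family of 16 relations, with Hmgcs1 and Sqle set against genes around the pathway, neither did this r (adjusted permutation p = 0.109). Stard4 tracked Hmgcs1 (r = 0.64, rho = 0.64; adjusted permutation p = 0.00191 and 0.00240) and Fdps (r = 0.73, rho = 0.74).

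Abcg5 and Abcg8 tracked each other (r = 0.62, rho = 0.66, and r = 0.51 without the 2 farthest mice). Abcg5 ran opposite to Cyp51 (r = -0.66, rho = -0.71; adjusted permutation p = 0.00472 and 0.00186; r = -0.68 without the 2 farthest), and Abcg8 opposite to Fdps (r = -0.55, rho = -0.63; adjusted permutation p = 0.0138 and 0.00464; r = -0.46). With Hmgcs1 the r was -0.25 for Abcg5, -0.25 for Abcg8 and -0.35 for Abca1, and none of the 3 passed (adjusted permutation p = 0.333, 0.316 and 0.200).

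**Figure D4:**
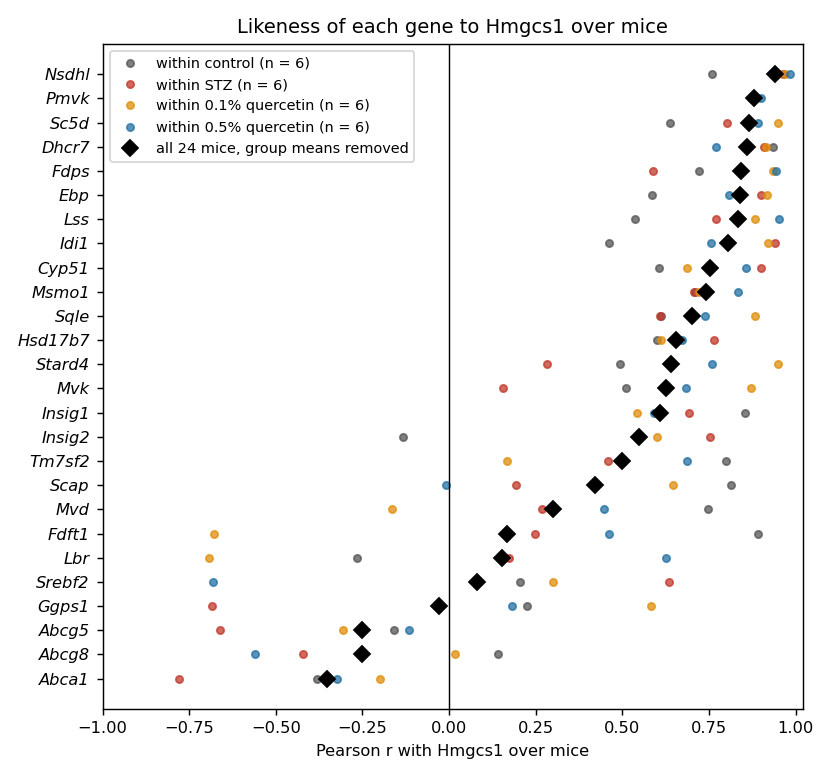
Pearson r of each of 26 genes with Hmgcs1 over mice, after group means were removed (black diamonds, 24 mice) and within each group of 6 (dots). From Nsdhl at 0.94 down to Sqle at 0.70, 11 genes lie at 0.7 or more, and the exporters lie below 0.

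Counted per mouse, all 19 enzymes were below their group mean in 0.5% replicate 3, 17 of 19 were in 0.1% replicate 5, control replicate 4, STZ replicate 5 and 0.5% replicate 2, and 1 of 19 was in control replicate 6 and in 0.5% replicate 5. The mean deviation of the 19 enzymes was lowest in 0.1% replicate 5 (-0.56) and 0.5% replicate 3 (-0.49), followed by control replicate 4 (-0.27), STZ replicate 5 (-0.26) and 0.1% replicate 6 (-0.24), and highest at 0.47 in 0.1% replicate 1, 0.45 in 0.5% replicate 5 and 0.39 in control replicate 6. Deviations are taken from the mean of each group, so every group holds mice below it by construction. These counts therefore do not compare the groups.

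Mice of a group also differed in Arntl (Bmal1), a core gene of the circadian clock whose level swings over the day. Not every mouse listed above stood apart in it. Control replicates 4 and 6 (5.48 and 5.55) lay near the control mean of 5.64. In contrast, 0.5% replicate 3 (4.73) and STZ replicate 5 (5.12) lay below their group means of 5.45 and 5.78. The dark period was set to the daytime hours, and the hour at which each mouse was killed is not given in the sources used here. Arntl was lowest of all mice in 0.1% replicates 5 and 6 (4.10 and 4.16), and over the other 22 mice it ran from 4.73 to 6.38. In every group, replicates 5 and 6 lay below replicates 1 and 2. Replicates 1 and 2 stood at 6.34 and 5.99 in control, 6.38 and 6.16 in STZ, 5.76 and 6.20 in 0.1%, and 6.10 and 5.65 in 0.5% mice. Replicates 5 and 6 stood at 4.91 and 5.55 in control, 5.12 and 5.20 in STZ, and 5.51 and 5.32 in 0.5% mice. What the replicate numbers stand for is not given in the sources used here. Hmgcs1 and Arntl deviated together, with an r of 0.71 (permutation p = 0.000690, adjusted over 16 relations 0.0110). The rho was 0.62 (permutation p = 0.00456, adjusted 0.0730), so the relation passed by r and not by rho. Without the 2 mice farthest from the others in Arntl deviation, 0.1% replicates 2 and 5, the r was 0.70. The r without 0.1% replicates 5 and 6 together was not computed. Within the groups r lay between 0.57 and 0.86. These relations had been planned for Sqle, which had an r of 0.39 with Arntl and did not pass (permutation p = 0.0615, adjusted 0.246). Those of Hmgcs1 were added to the plan. Dbp, a clock gene that peaks at another hour, had an r of -0.29 with Hmgcs1 (adjusted permutation p = 0.428), and its group means were 8.05 in control, 7.31 in STZ, 8.81 in 0.1% and 8.34 in 0.5% mice. Between groups neither clock gene passed in limma, with Arntl at -0.52 (adjusted p = 0.371) at 0.1% against control. The part of the time of day in the low enzyme levels was not tested.

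**Figure D5:**
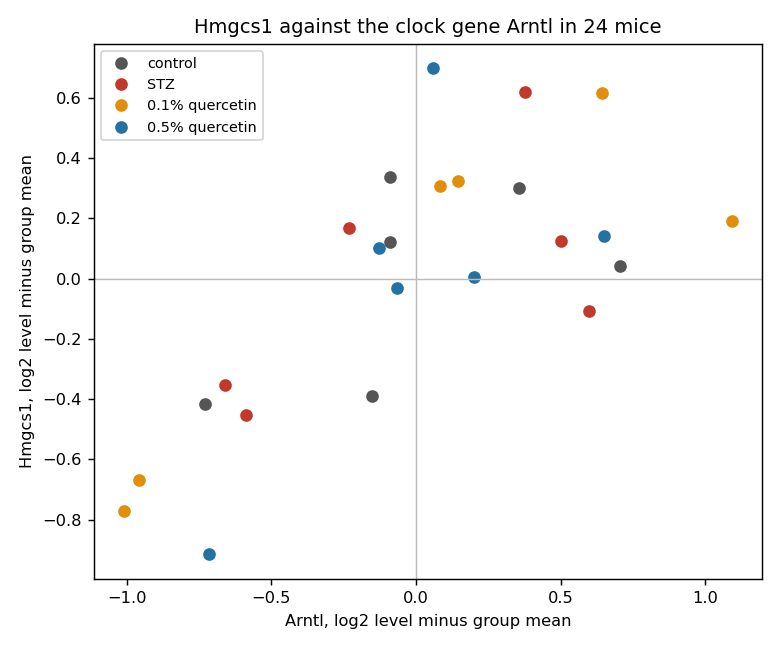
Hmgcs1 against Arntl in 24 mice, each as the log2(intensity + 16) level minus the mean of its group of 6, coloured by group. The 2 orange dots at the lower left are 0.1% quercetin replicates 5 and 6, the blue dot below them is 0.5% replicate 3, and the r over all mice is 0.71.

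Other genes around the pathway were counted from lists of neighbours. Of 6 tested genes for sterol sensing and SREBP cleavage, 1 fell in STZ mice, where 1.69% of all genes did: Erlin1, an endoplasmic reticulum protein linked to the retention of SREBP (-0.40, SE 0.11; limma adjusted p = 0.0424). Among 6 tested genes of the LXR branch, 1 fell at 0.1% quercetin against control, where 2.64% of all genes did: Srebf1, the factor for fatty acid synthesis (-0.67, SE 0.19; adjusted p = 0.0339). Its target Fasn fell by 1.15 in that comparison (adjusted p = 0.0118). For cholesterol esters, uptake and transport (12 tested) and for the non-sterol products of mevalonate (9 tested), 0 genes passed in each of the 6 comparisons, with up to 2 genes of each list at an unadjusted p under 0.05.

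Other features differed between the same groups. The Gapdh 3' minus 5' probe set difference, a sign of RNA integrity and labelling, was -0.04 ± 0.17 (SD, n = 6) in control mice, -0.34 ± 0.10 in STZ mice, -0.32 ± 0.15 at 0.1% and -0.21 ± 0.17 at 0.5% quercetin (exact permutation p = 0.00433 for STZ and 0.0130 for 0.1% against control, adjusted 0.0519 and 0.0779 over 12 tests; the smallest p the design allows is 0.00216). With that difference as a covariate, 0 of the 27 genes passed in any comparison, and of all genes 6 passed in STZ mice and 4 at 0.1% against control; Sc5d at 0.1% against control was then -0.83 (adjusted p = 0.250) and Scap in STZ mice -0.30 (adjusted p = 0.453), and Abcg8 at 0.1% went from 0.24 to 0.10 (adjusted p = 0.830). Kupffer cell and macrophage markers rose, 3 of 9 (C1qa, C1qb, Cd5l) in STZ mice and 4 of 9 at 0.1%, where 2.03% and 2.94% of all genes rose, with summed intensities of 1051 to 1364 in control, 1425 to 1828 in STZ, 1501 to 1823 in 0.1% and 1065 to 1655 in 0.5% mice; Marco lay under the filter. Ighm of the B cell markers and Cela1 of the pancreas markers fell in both STZ and 0.1% mice, and the summed intensities of those lists were 150 to 298 and 476 to 649 in control mice, 51 to 98 and 175 to 263 in STZ mice, 58 to 106 and 162 to 302 at 0.1%, and 53 to 244 and 201 to 575 at 0.5%. Ttpa of 9 hepatocyte markers, Dcn of 6 stellate cell markers and Lyve1 of 5 endothelial markers rose in both STZ and 0.1% mice, Reln of the stellate list fell at 0.1%, 0 of 3 bile duct markers passed, and 0 adipocyte markers lay over the filter. The Gapdh difference itself differed between control and STZ mice, so the fit with it as a covariate cannot separate it from group. The part of these features in the sterol gene differences was not tested. Over all arrays, mean intensity ran from 61.0 to 102, correlations between arrays lay between 0.964 and 0.989, and the p-values take the 6 mice within each group to be independent samples.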

How the data were processed

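The table deposited by the authors held 1 intensity per probe set and array on a linear scale, 45101 probe sets by 24 arrays, with 0 sample columns left unused; per the labels' protocols, RNA was extracted with RNeasy kits and biotin-labelled cRNA was hybridised. The summary algorithm, any scaling and the software are not given in the sources used here, and no detection calls were used. No array had been brought to a common mean, so deposited intensities were quantile normalized and converted to log2(intensity + 16). Probe sets with 1 gene symbol in the platform annotation (34958; 932 had several and 9211 none) were used, the brightest for each gene, and genes under the 40th percentile of probe set means were left out. A linear model with 4 group means over 24 arrays was fitted in limma 3.58.1 (R 4.3.3), after the code had been tested on simulated data. Correlations used deviations from group means and 100000 permutations within groups. The sources do not tie replicate numbers to litters or cages, and of 6 same-numbered pairs at most 2 correlated above 0.1 in a comparison, so no block was used. Arntl was nevertheless lower in replicates 5 and 6 than in replicates 1 and 2 of every group. A fit with the replicate number as a block is given below. The number of arrays limits the precision.

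The genes, lists, motifs and tests were chosen with earlier results of these data known. Named with values are all genes that passed, the 3 smallest p-values of each comparison, and Hmgcs1, Sqle, Srebf2, Scap, Insig1, Insig2, Fdps, Lss, Cyp51, Idi1, Stard4, Abca1, Abcg5 and Abcg8; neighbouring pathway lists and markers of hepatocytes, Kupffer cells and macrophages, B and T cells, stellate, endothelial, bile duct, pancreas and fat cells are given by counts. Alternatives changed the scaling, the constant, the filter, the choice of probe set, the arrays and the model. Figures were drawn with matplotlib 3.10.9.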

Additional observations from a re-analysis of the deposited data

Results flagged for a closer look

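In 6 of 108 groups of 6 mice (5.56%), a single mouse stood far from the others for 1 of the 27 genes: its gap to the nearest mouse, as a share of the range of the group, passed Dixon's critical value for 6 samples. Chance alone gives this in about 1 in 20 groups. The levels, on the log2(intensity + 16) scale, were 5.68 for Ggps1 in STZ replicate 6 and 5.12 for Ggps1 in 0.5% quercetin replicate 1, each the highest of its group. Sqle was highest in STZ replicate 2 (6.60) and Hsd17b7 in control replicate 6 (7.33), the mouse with 1 of 19 enzymes below its group mean. Hsd17b7 was lowest in 0.1% quercetin replicate 5 (6.39), and Insig2 in 0.1% quercetin replicate 6 (9.93), the mice with the lowest Hmgcs1.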

How the results depend on the processing

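In STZ mice against control, Scap was the 1 gene of 27 that passed; 0 passed with the values as deposited, with a constant of 1, with the mean of all probe sets or with the Gapdh covariate, and 2 (Scap and Stard4) with only the groups compared or without 0.5% quercetin replicates 5 and 6. At 0.1% quercetin against control, 5 passed, and 1 (Sc5d) did with the values as deposited or a constant of 1, 3 with the mean of all probe sets, 4 with no filter or a trended robust fit, 6 (with Stard4) without 0.5% replicates 5 and 6, 7 (with Fdps and Stard4) with median scaling, 0 with the Gapdh covariate and 0 without 0.1% replicates 5 and 6, which was tried once their levels were known. With the replicate number as a block, 3 passed there (Insig1, Pmvk and Sc5d), and the block changed the count in no other comparison; same-numbered mice were not shown to be paired. At 0.5% against control, 0 passed, and 4 (Abca1, Insig1, Scap and Stard4) did with median scaling and 1 (Stard4) without 0.5% replicates 5 and 6. In the other 3 comparisons 0 passed throughout. The causes were not tested. Leaving out 1 mouse gave 0 to 1 gene in STZ mice and 1 to 6 at 0.1% against control, and 0 elsewhere. Of 435 differences of single genes under the alternatives, 395 kept their side of the threshold, 29 lost a call and 10 gained one. Most of these differences had not passed in the main fit, so the 395 do not measure how well the calls held. The remaining 1 changed sign, Scap at 0.5% against STZ, to -0.000755 with the values as deposited.

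Genes called among 13114 ran from 6 (Gapdh covariate) to 789 (array weights) in STZ mice and from 4 to 906 at 0.1% against control, where 488 and 731 passed, and from 0 to 688 (median scaling) at 0.5%, where 17 did. With median scaling, STZ mice had 171 genes above control and 286 below (266 and 222 with quantile scaling), 0.1% mice 220 and 542 (385 and 346) and 0.5% mice 36 and 652 (7 and 10); with the values as deposited the split in STZ mice was 120 and 41. The arrays' signal limits dim genes such as Sqle, Mvd and Ggps1, whose differences shrink toward 0 under the constant of 16.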

Other observations

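Outside the sterol route, the genes whose deviations over the 24 mice were most like those of Hmgcs1 were Acss2 (Pearson r = 0.84), which makes acetyl-CoA from acetate, the adaptor Grb14 (0.83), 1700037H04Rik (0.82), the fatty acid elongase Elovl5 (0.80), the acyl-CoA synthetase Acsl5 (0.80) and the water channel Aqp8 (0.79). Erg28, a scaffold of the sterol demethylation complex that was not on the list, had an r of 0.75. Most opposite were Slc37a4, the glucose 6-phosphate transporter (-0.86), Ccn2 (-0.79) and Alas1, the first enzyme of heme synthesis (-0.78). These genes were picked by their values among 13113, after group means were removed, so the values are a description without a test.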
